A study of Homo sapiens with 4 samples.

Results

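The matrix metalloproteinases and secreted proteases described here are 10 genes, MMP1, MMP3, MMP10, MMP7, MMP2, MMP9, MMP14, ADAMTS1, HTRA1 and PLAU, out of 17240 genes that the probes of the array name. Every probe whose accession belongs to 1 of these genes was taken, which gave 11 probes, 2 for ADAMTS1 and 1 for each other gene. The genes were chosen with the ratio of knockdown over control already known, so that ratio is given below as a description, with no test. MMP1, MMP3, MMP10 and MMP7 lie in 1 gene cluster on chromosome 11 and are set beside the other 6.

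The cells were A2780s, an epithelial ovarian adenocarcinoma line. The clones sh-G1 and sh-G2 stably carry an shRNA against GALNT3, a glycosyltransferase that starts mucin-type O-glycans, in the vector pSilencer 4.1 puro, and the ctrl clone is mock-transfected with the empty vector. All 3 were grown out of puromycin selection. Total RNA of sh-G1 and of sh-G2 was hybridised together with ctrl RNA, each on 2 Agilent Whole Human Genome arrays with the dyes exchanged, the knockdown clone carrying Cy5 in replicate 1 and Cy3 in replicate 2. Both knockdown clones hold the same shRNA sequence and are set against 1 ctrl clone, so an effect of the targeted gene, of the shRNA sequence and of clone selection cannot be told apart, and the ratios of sh-G1 and sh-G2 share their control. The labels spell the cell line of ctrl in 2 ways, A2780s and A27803, and it was taken as the 1 ctrl clone that the methods name.

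Matrix metalloproteinases are zinc enzymes that cells secrete, or hold at their surface, as inactive proenzymes, and that cut collagens and other proteins of the extracellular matrix. TIMP proteins block them, and plasmin, which urokinase releases from plasminogen, opens some of the proenzymes. In carcinomas these enzymes come from tumour cells as well as from the surrounding stroma and are studied for their part in migration and invasion.

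Median spot intensities per array ranged from 451.5 to 802.5 for Cy3 and from 463 to 558 for Cy5, and at least 88.1% of spots were well above background in the knockdown channel. The single GALNT3 probe gave log2 ratios of -0.09 and 0.08 for sh-G1 and 0.12 and -0.14 for sh-G2. In ctrl it lay only 0.30 on the log2 scale above the dimmest signal counted as well above background, so these arrays neither show the knockdown nor could have measured a large decrease. All 8 markers of an ovarian carcinoma line were above background in every channel, but so were all 4 measured leukocyte genes, all 4 measured fibroblast genes and 3 of 4 endothelial genes, so passing that limit does not tell cell types apart here. KRT18 and KRT8 were called lower in the knockdown clones by limma, with mean log2 ratios of -2.32 and -1.03 (adjusted p = 0.0362 and 0.0316). The rest of that carcinoma list was not called: EPCAM had -0.33, and PAX8, WT1, CDH1, MUC16 and VIM lay between -0.05 and 0.0062. The median of the list was -0.04. Of 5 fibroblast genes 4 were measured, COL1A1 having no probe kept. Their summed level lay between 14.91 and 15.03 in the ctrl channels and between 10.96 and 13.02 in the knockdown channels (log2 intensity), without overlap, which came from DCN and LUM, genes of small matrix proteoglycans. The log2 ratio of DCN was -4.24 for sh-G1 and -2.09 for sh-G2, that of LUM -4.58 and -2.04. COL1A2 had a mean of -0.33 and FAP of -0.0029, and no gene of this list was called. Summed levels of the leukocyte and endothelial lists overlapped between knockdown and ctrl.

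The members fell into 3 sets. MMP10, MMP3, MMP1 and HTRA1 were lower in both knockdown clones on every array, ADAMTS1 was higher on every array, and MMP7, MMP2, MMP9, MMP14 and PLAU lay near the ctrl level with signs that differed between arrays. All 11 probes were well above background in both channels of all 4 arrays, a probe counting where any of its spots did. The probes of MMP7, MMP2 and MMP14 were dim all the same.

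**Figure D1:**
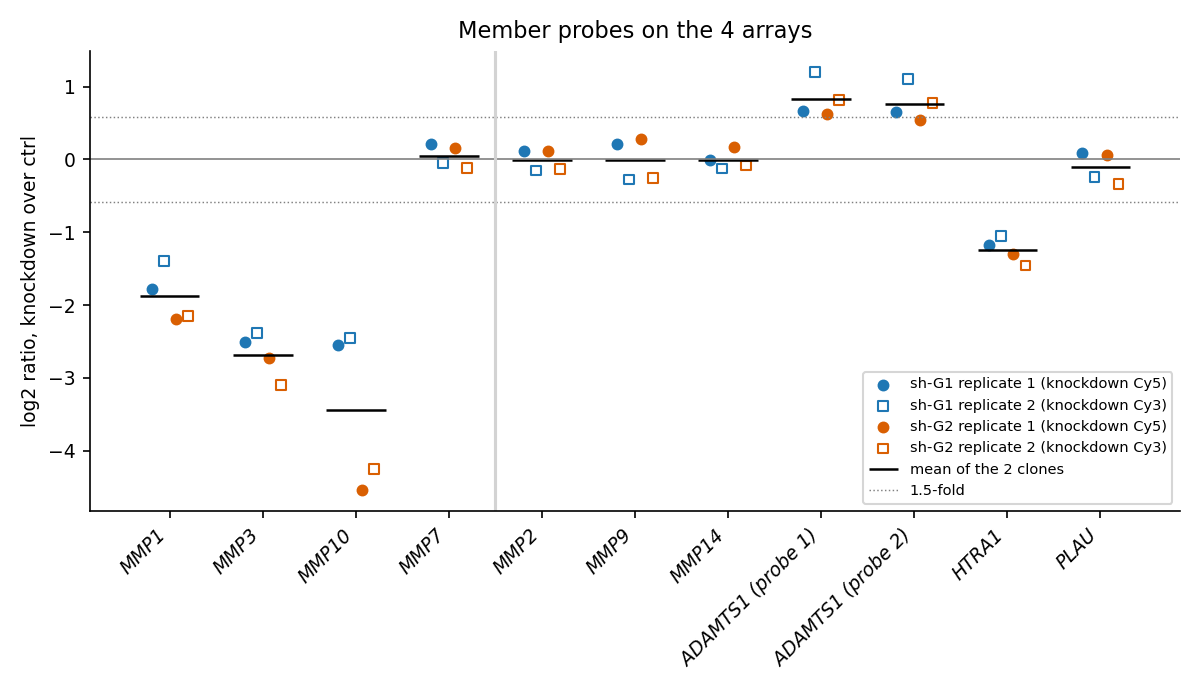
Log2 ratio of knockdown over ctrl (y axis) of the 11 member probes (x axis), 1 point per array, coloured by clone and shaped by dye orientation, with a bar at the mean of the 2 clones and dotted lines at 1.5-fold. MMP1, MMP3, MMP10 and HTRA1 lie below the lower line on all 4 arrays, and MMP10 splits by clone, near -2.5 in sh-G1 and below -4.2 in sh-G2.

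MMP10 encodes stromelysin-2, which degrades proteoglycans, laminin and fibronectin and activates other metalloproteinase proenzymes. Its normalised level, in log2 intensity, was 13.41, 13.33, 13.52 and 13.40 in the ctrl channel of the 4 arrays. In the knockdown channel it was 10.87 on both sh-G1 arrays and 8.98 and 9.15 on the sh-G2 arrays. The ctrl values thus lay within 0.2 of each other, all knockdown values lay below them, and the clones lay apart from each other. The log2 ratio was -2.54 and -2.45 for sh-G1 and -4.54 and -4.25 for sh-G2, a mean of -3.44 ± 1.34 (SD, n = 2 clones). On the linear scale MMP10 was 5.64-fold lower in sh-G1 and 21.0-fold lower in sh-G2.

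MMP3 encodes stromelysin-1, a close relative of MMP10 in sequence and substrates. Its ctrl level was 10.70, 10.61, 10.69 and 10.50, and its knockdown level 8.19 and 8.23 in sh-G1 and 7.96 and 7.41 in sh-G2. Levels of the 2 sides did not overlap. The log2 ratio was -2.51 and -2.38 for sh-G1 and -2.73 and -3.10 for sh-G2, a mean of -2.68 ± 0.33 (SD, n = 2 clones), which is 5.45-fold lower in sh-G1 and 7.52-fold lower in sh-G2.

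MMP1 encodes the interstitial collagenase, which cuts fibrillar collagens across the triple helix. Its probe is printed 10 times on each array, and 1 spot of 1 array was left out as an outlier. The level was 10.36, 10.12, 10.47 and 10.19 in ctrl, 8.58 and 8.72 in sh-G1 and 8.28 and 8.04 in sh-G2. Again every knockdown value lay below every ctrl value. Log2 ratios were -1.78 and -1.40 for sh-G1 and -2.18 and -2.15 for sh-G2, a mean of -1.88 ± 0.41 (SD, n = 2 clones), or 3.00-fold and 4.48-fold lower. The SD between the spots of 1 array was 0.16 to 0.26.

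MMP7 encodes matrilysin, a small metalloproteinase without the hemopexin domain that the other cluster members of this set carry. Its level was 7.48, 7.53, 7.39 and 7.53 in ctrl and 7.70, 7.48, 7.55 and 7.42 in the knockdown channels, which overlapped. The log2 ratio was 0.22 and -0.05 for sh-G1 and 0.16 and -0.11 for sh-G2, with a mean of 0.05 ± 0.04 (SD, n = 2 clones). Its sign followed the dye, higher where the knockdown clone carried Cy5, and the dimness of the probe limits what it can show, since the ctrl level lay 1.40 above the dimmest signal counted as well above background.

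**Figure D2:**
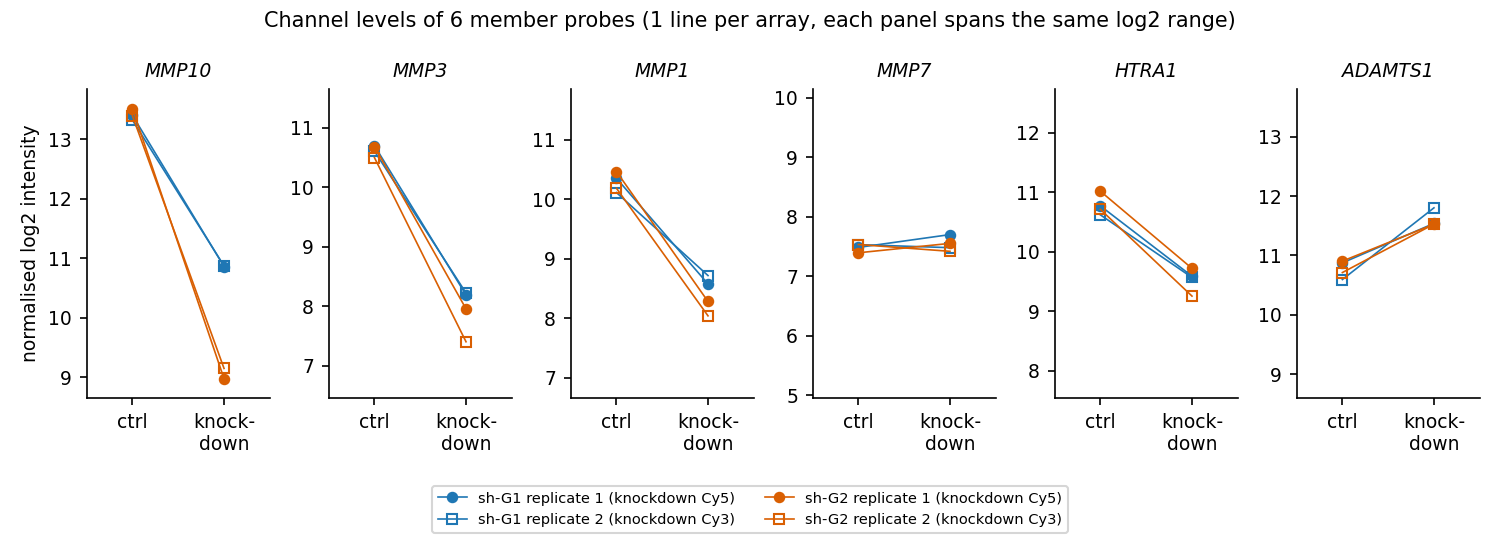
Normalised log2 intensity (y axis) of 6 member probes in the ctrl and knockdown channels (x axis), 1 line per array, coloured by clone, each panel with its own axis of equal span. Lines for MMP10, MMP3, MMP1 and HTRA1 all descend, those of ADAMTS1 all ascend, those of MMP7 cross, and levels are not comparable between panels.

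Outside the cluster, HTRA1 was the member with the lowest ratio. It encodes a secreted serine protease of the HtrA family that cuts matrix proteins and binds ligands of the TGF-beta family. The level was 10.77, 10.62, 11.02 and 10.71 in ctrl, 9.59 and 9.57 in sh-G1 and 9.72 and 9.26 in sh-G2, with no overlap. Log2 ratios were -1.18 and -1.05 for sh-G1 and -1.30 and -1.46 for sh-G2, a mean of -1.25 ± 0.18 (SD, n = 2 clones), which is 2.37-fold lower.

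ADAMTS1, a secreted protease with thrombospondin repeats that cuts the proteoglycans aggrecan and versican, was the only member that was higher. Its brighter probe had a level of 10.88, 10.60, 10.91 and 10.71 in ctrl and of 11.54, 11.80, 11.53 and 11.53 in the knockdown channels. No knockdown value reached down to a ctrl value. Log2 ratios were 0.66 and 1.21 for sh-G1 and 0.62 and 0.81 for sh-G2, a mean of 0.83 ± 0.15 (SD, n = 2 clones), which is 1.77-fold higher. The second probe gave 0.65, 1.11, 0.54 and 0.77, a mean of 0.77 ± 0.16, and on 1 array it stayed under 1.5-fold.

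The gelatinases and urokinase lay at the ctrl level. MMP9, gelatinase B, had log2 ratios of 0.22 and -0.27 for sh-G1 and 0.28 and -0.26 for sh-G2, the opposite sign with each dye orientation, and a mean of -0.0076. MMP2, gelatinase A, had 0.12, -0.15, 0.11 and -0.13, and MMP14, the membrane-anchored enzyme that activates the MMP2 proenzyme, had -0.01, -0.12, 0.17 and -0.08. PLAU, the urokinase plasminogen activator, had 0.08 and -0.24 for sh-G1 and 0.06 and -0.34 for sh-G2, with a mean of -0.11 ± 0.04 (SD, n = 2 clones). For these 4 and MMP7 the mean of the clones lay between -0.11 and 0.05, within the spread between dye orientations. The probes of MMP2 and MMP14 were dim in ctrl, 1.09 and 1.08 above the dimmest signal counted as well above background, whereas those of MMP9 and PLAU, 5.08 and 4.59 above it, had room to show a decrease.

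The study selected genes at 1.5-fold in both arrays of a comparison. Asked here of all 4 arrays together, 1.5-fold was passed by 4 of the 10 members in the lower direction and by 1, ADAMTS1 with its brighter probe, in the higher direction, which did not pass with the scanner software's own ratios. Among all 39152 probes kept, 0.919% were lower and 0.23% higher by that rule, and since the members were chosen on this same ratio nothing is read from the comparison. In the cluster 3 of 4 members were lower and 0 higher, and outside it 1 of 6 was lower and 1 higher. The median log2 ratio was -2.28 over the 4 cluster members and -0.01 over the other 6, beside -0.0041 over all 16882 genes with a probe kept. The cluster median hides MMP7, which at 0.05 lay with the members near 0 rather than with its neighbours. Fewer cells of a type and less RNA per cell cannot be told apart in such bulk RNA. Of the 4 measured fibroblast genes DCN and LUM were far lower in the knockdown clones, COL1A2 little and FAP not (-0.06 in sh-G1 and 0.05 in sh-G2). DCN and LUM had the lower ratio in sh-G1, where MMP1, MMP3 and MMP10 had the lower ratio in sh-G2, and the part of this list in the metalloproteinase ratios was not tested.

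In the order of genes along chromosome 11, taken from RefSeq (GRCh38.p14) without coordinates, the low ratios lay in a short run. From MMP7 the cluster runs through MMP20, MMP27, MMP8, MMP10, MMP1, MMP3 and MMP12 to MMP13. MMP10, MMP1 and MMP3 are adjacent, and they were the only ones of the 9 cluster genes that passed 1.5-fold downwards on every array. The other 6 had mean log2 ratios from -0.06 to 0.05. On the near side MMP8, the neutrophil collagenase, had 0.14, -0.11, 0.11 and -0.15 on the 4 arrays. On the far side MMP12, macrophage elastase, had 0.14, -0.09, 0.07 and -0.24, and its second probe had a mean of -0.21, below 0 on every array (unadjusted p = 0.0094, adjusted p = 0.204 by limma). MMP13, collagenase-3, had values from -0.10 to -0.00, MMP20, the enamel protease, from -0.11 to 0.16, and MMP27 from -0.45 to 0.33. None of the 5 cluster genes outside the member set was called by limma, nor was any at an unadjusted p under 0.05 by its brightest probe, beside 15.3% of all genes. MMP20 and MMP13 were well above background in the knockdown channel of 3 of the 4 arrays only, so a decrease there could have been missed. In ctrl, MMP10, MMP1 and MMP3 lay 7.33, 4.20 and 4.54 above the dimmest signal counted as well above background, and MMP7 1.40. Ctrl levels of the 5 cluster genes outside the member set are not given here. Whether the run reflects gene position or which cluster genes ctrl expressed was not tested.

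**Figure D3:**
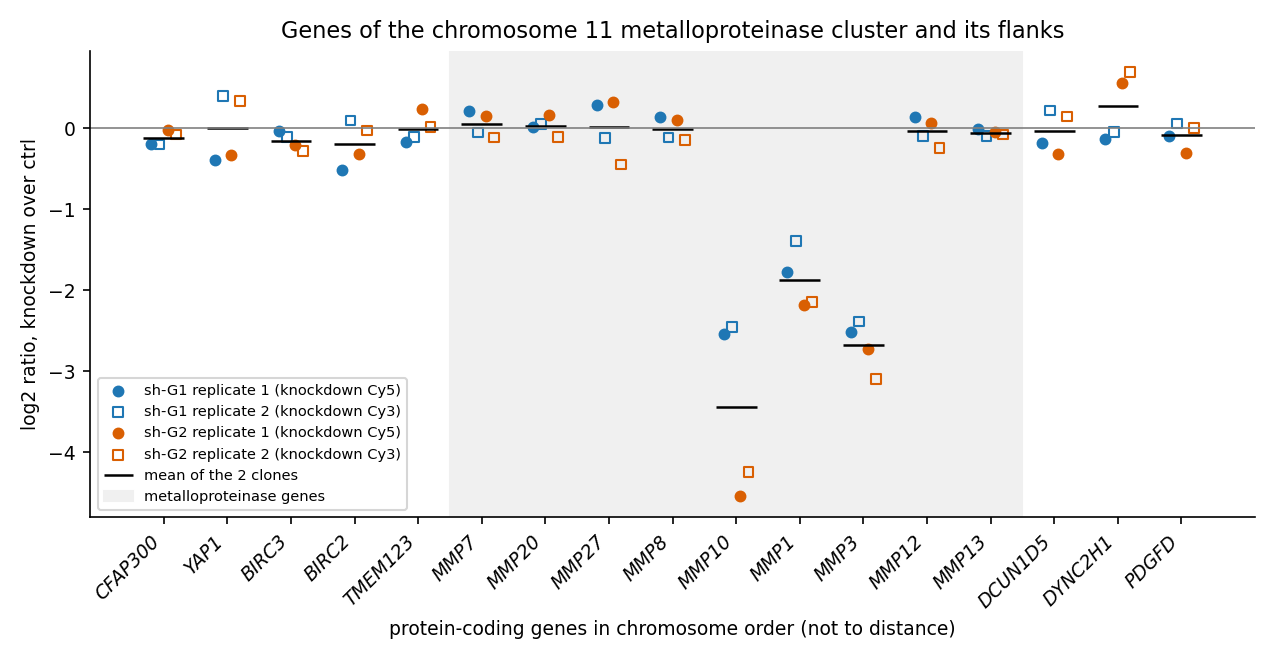
Log2 ratio of knockdown over ctrl (y axis) for the 17 protein-coding genes from CFAP300 to PDGFD in chromosome order, evenly spaced (x axis), 1 point per array and a bar at the mean of the 2 clones, with the 9 metalloproteinase genes shaded. The adjacent genes MMP10, MMP1 and MMP3 lie between -1.4 and -4.54 on every array, while all 14 others lie between -0.51 and 0.70.

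The 8 genes that flank the cluster showed nothing like the run inside it. Their mean log2 ratios ran from -0.19 for BIRC2, an inhibitor of apoptosis, to 0.27 for DYNC2H1, a motor of ciliary transport. DYNC2H1 had -0.13 and -0.04 for sh-G1 and 0.56 and 0.70 for sh-G2, apart by clone, but its difference between clones did not pass the test (0.71, adjusted p = 0.214 by limma). BIRC3 had -0.16, CFAP300 -0.12, PDGFD -0.09, DCUN1D5 -0.03, TMEM123 -0.0033 and YAP1, the transcriptional co-activator, 0.0036. Of their other probes, that of TMEM123 gave -0.27 (unadjusted p = 0.0271, adjusted p = 0.304 by limma), that of YAP1 -0.03 and those of DYNC2H1 0.08 and -0.11. The PDGFD probe was not well above background in the knockdown channel of any array. Of these 8 genes 0 were called by limma, and 1 had an unadjusted p under 0.05.

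Promoter sequence from RefSeq was matched for 5 of the 10 members, MMP10, MMP7, MMP14, HTRA1 and PLAU, and not for MMP1, MMP3, MMP2, MMP9 and ADAMTS1. MMP10 and MMP7 are shown because they are the cluster members at either extreme, the one with the lowest ratio and the one at the ctrl level. The lines give the last 120 bases before the start site on the minus strand, 5′ to 3′ along the gene, at chr11:102780629-102780748 for MMP10 and chr11:102530748-102530867 for MMP7 (GRCh38.p14). Capitals mark TATAAA and the AP-1 letters TGAGTCA, searched on both strands, which do not overlap each other.
MMP10: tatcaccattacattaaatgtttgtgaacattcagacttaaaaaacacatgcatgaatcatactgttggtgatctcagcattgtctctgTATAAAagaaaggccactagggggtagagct
MMP7: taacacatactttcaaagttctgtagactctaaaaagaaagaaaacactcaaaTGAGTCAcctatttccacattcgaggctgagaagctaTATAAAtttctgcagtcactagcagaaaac

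The MMP10 window held TATAAA starting at base -31, and MMP7 held it at -30. MMP7 also held TGAGTCA, the core letters bound by AP-1 factors of the FOS and JUN families, starting at -67. These exact letters were not in the 250 bases searched before the MMP10 start site, which says nothing of AP-1 at that gene. The MMP10 line holds tgaatca, different in 1 letter, also starting at -67, and the search did not take such near matches. Over 35116 promoters of the same 250 bases, 4.20% held TGAGTCA and 10.7% held TATAAA on either strand. By exact match MMP7, with a mean log2 ratio of 0.05, held both sets of letters, and MMP10, with -3.44, held TATAAA alone. That describes the sequence and not bound sites, and with the near match in MMP10 nothing is read from it. MMP14, HTRA1 and PLAU held neither. The ETS letters AGGAAG and the SP1 letters GGGCGG were also searched in the 250 bases, and 28.7% and 42.6% of all promoters held them. AGGAAG matched 2 times in MMP7 and 0 times in MMP10, MMP14 and HTRA1. GGGCGG matched 5 times in HTRA1, 1 time in MMP14 and 0 times in MMP10 and MMP7. The second PLAU promoter held AGGAAG 1 time and GGGCGG 3 times, and the first held neither.

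The difference between the knockdown clones was not used to choose the members and was fitted by limma to all 4 arrays with the dye included. Each side is 1 clone on a dye-swapped pair of arrays, so the p-values measure the spread between hybridisations only, with 1 residual degree of freedom before moderation. They compare the RNA hybridised from these 2 clones and hold no spread between cultures or clones. By that measure MMP10 was the only one of the 11 member probes called. Its difference in log2 ratio, sh-G2 minus sh-G1, was -1.90 (SE 0.14, 95% interval -2.25 to -1.54, adjusted p = 0.0464 by limma), and both sh-G2 arrays lay below both sh-G1 arrays. Of all probes kept 0.11% were called in this comparison, 43 of 39152, of which 30 were lower and 13 higher in sh-G2. The call stands at the edge of the threshold. Its adjusted p ranged from 0.0354 to 0.307 over the alternatives, and it was lost without background correction (0.0605), with median centring (0.0537), with both channels required above background (0.0614) and without the dye term (0.307), while the difference itself was -1.89 or lower under each.

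MMP1 and MMP3 were also lower in sh-G2 than in sh-G1, by less than MMP10. For MMP1 the difference was -0.58 (95% interval -0.90 to -0.26, unadjusted p = 0.0060, adjusted p = 0.305 by limma). For MMP3 it was -0.46 (95% interval -0.85 to -0.08, unadjusted p = 0.0269, adjusted p = 0.555 by limma). Both missed the threshold after adjustment over all probes. HTRA1 differed by -0.26 (95% interval -0.59 to 0.07), and ADAMTS1 by -0.22 with each probe (95% intervals -0.60 to 0.17 and -0.55 to 0.11). Intervals of MMP7, MMP2, MMP9, MMP14 and PLAU all included 0 and stayed between -0.37 and 0.37, so a clone difference larger than that was outside the interval for each of these.

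**Figure D4:**
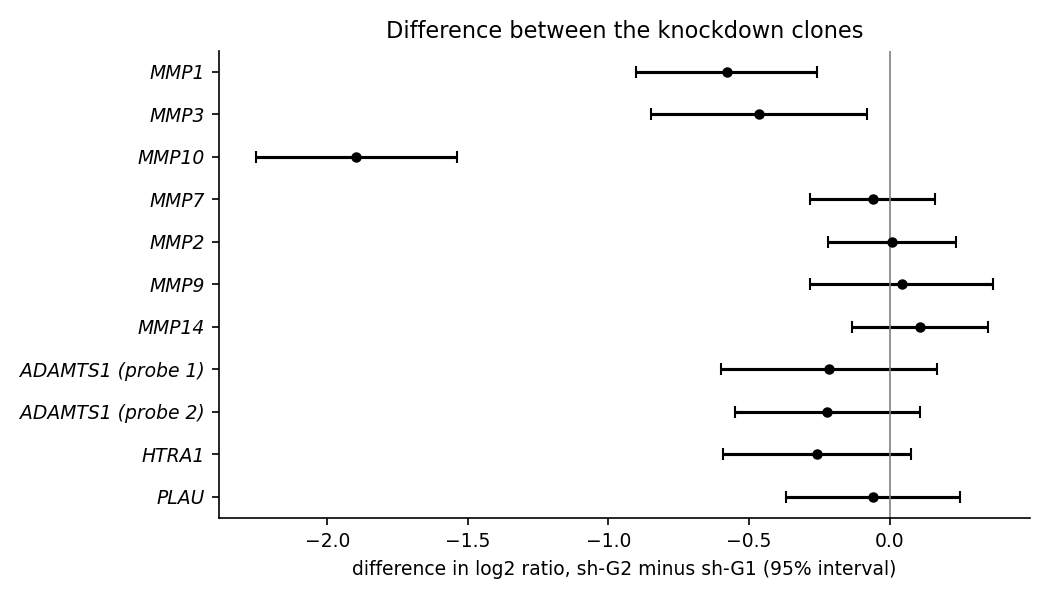
Difference in log2 ratio, sh-G2 minus sh-G1 (x axis), for the 11 member probes (y axis), points at the limma estimate and bars for its 95% interval from 4 arrays. MMP10 at -1.90 stands apart, the intervals of MMP1 and MMP3 lie below 0 before adjustment, and the other 8 include 0.

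The genes whose 4 ratios lay nearest to those of the lower cluster members, by Euclidean distance over the 4 arrays and 16882 genes, give a scale for these patterns. For MMP10 the nearest were SPATS2L, at a distance of 0.65, ADGRB3 at 1.04 and LAMB1, a laminin chain, at 1.31. SPATS2L had -2.45 and -2.64 for sh-G1 and -3.93 and -4.30 for sh-G2, so it too was lower in sh-G2. Nearest to MMP3 were NR0B1 at 0.34, EGLN3, an oxygen-dependent prolyl hydroxylase, at 0.35 and FAM133A at 0.38. Nearest to MMP1 were CPPED1 at 0.25, KCNC1 at 0.31 and EPB41L3 at 0.40. These are descriptions over 4 arrays that share ctrl.

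Other proteases and their inhibitors, in lists that hold no member, were tested with limma on the 2 clone means. Of 91 genes measured, 0 were called by their brightest probe. Among all probes kept, counted by probe and not by gene, 0.7% were called lower and 0.138% higher, so 0 among 91 genes says little. Of the 91 genes 16 had an unadjusted p under 0.05, beside 15.3% of all genes. With clone as a random block in place of clone means, 12 were called, beside 8.06% of all genes. That fit had no dye term and a correlation within clone of -0.66. A negative correlation makes the arrays of a clone count as more than independent replicates, so nothing is read from these calls. The median log2 ratio of the 91 genes was -0.02, and only PRSS12 and TLL1 passed 1.5-fold on all 4 arrays. PRSS12, the serine protease neurotrypsin, had -1.18 and -1.31 for sh-G1 and -1.55 and -1.94 for sh-G2, a mean of -1.50 ± 0.35 (SD, n = 2 clones, adjusted p = 0.0684 by limma). Its second probe had a mean of -1.03 and was called (adjusted p = 0.0223 by limma), the only one of the 126 probes of these lists that was. TLL1, a procollagen C-proteinase of the astacin family, had 0.72 and 0.76 for sh-G1 and 1.66 and 1.10 for sh-G2, a mean of 1.06 ± 0.45 (adjusted p = 0.163 by limma).

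The metalloproteinases outside chromosome 11's cluster and outside the member set, 11 genes, had a median of -0.04 and 0 calls by limma, with 2 at an unadjusted p under 0.05. MMP25, a membrane-anchored leukocyte enzyme, had the largest mean at -0.28 (adjusted p = 0.264), followed by MMP17 at -0.16 (adjusted p = 0.362). The 7 inhibitors, TIMP1 to TIMP4, RECK, A2M and TFPI2, had a median of 0.00040 and 0 calls, with 1 at an unadjusted p under 0.05. TIMP2, which inhibits metalloproteinases and takes part in activating MMP2, had -0.27 (adjusted p = 0.242), with -0.63 and -0.53 where the knockdown clone carried Cy5 and 0.08 and -0.01 where it carried Cy3. TIMP1 had -0.04.

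In the plasminogen system, the setting of PLAU, 0 of 10 genes were called, 1 had an unadjusted p under 0.05, and the median was -0.02. SERPINI1, the neural inhibitor of plasminogen activators called neuroserpin, had 0.62 ± 0.06 (SD, n = 2 clones, adjusted p = 0.066 by limma), and PLAUR, the urokinase receptor, had -0.15. Of the relatives of ADAMTS1, 17 of 18 were measured and 0 called, with 3 at an unadjusted p under 0.05 and a median of -0.04. The ones farthest from 0 were ADAMTS13, which cuts von Willebrand factor, at -0.46 and ADAMTS12 at -0.42, though their other probes lay between -0.09 and -0.04. The ADAM family had 0 of 11 called and 2 at an unadjusted p under 0.05, with ADAM23 at -0.52 (adjusted p = 0.0575 by limma) and ADAM8 at -0.30. Of the relatives of HTRA1, HTRA2 had -0.12 and HTRA3 0.07, and 0 of 3 were called or had an unadjusted p under 0.05 by their brightest probe. The highest mean log2 ratio was 0.13 among the ADAMTS genes and 0.26 among the ADAM genes.

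Factors of the AP-1 and ETS families and RUNX2, which are known to act on metalloproteinase promoters, were 13 of 14 measured with 0 called, 3 at an unadjusted p under 0.05, and a median of 0.00083. FOS was lowest, with -0.41 and -0.49 for sh-G1 and -0.44 and -0.84 for sh-G2, a mean of -0.55 ± 0.13 (SD, n = 2 clones, adjusted p = 0.102 by limma). ETV1, an ETS factor, had 0.37 by its brighter probe and 0.32 by the other (adjusted p = 0.141 and 0.157 by limma). ETV4 had 0.36, with 0.56 for sh-G1 and 0.16 for sh-G2 (adjusted p = 0.372 by limma). JUN had -0.13, JUNB -0.10, FOSL1 0.05 and ETS1 -0.04.

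**Figure D5:**
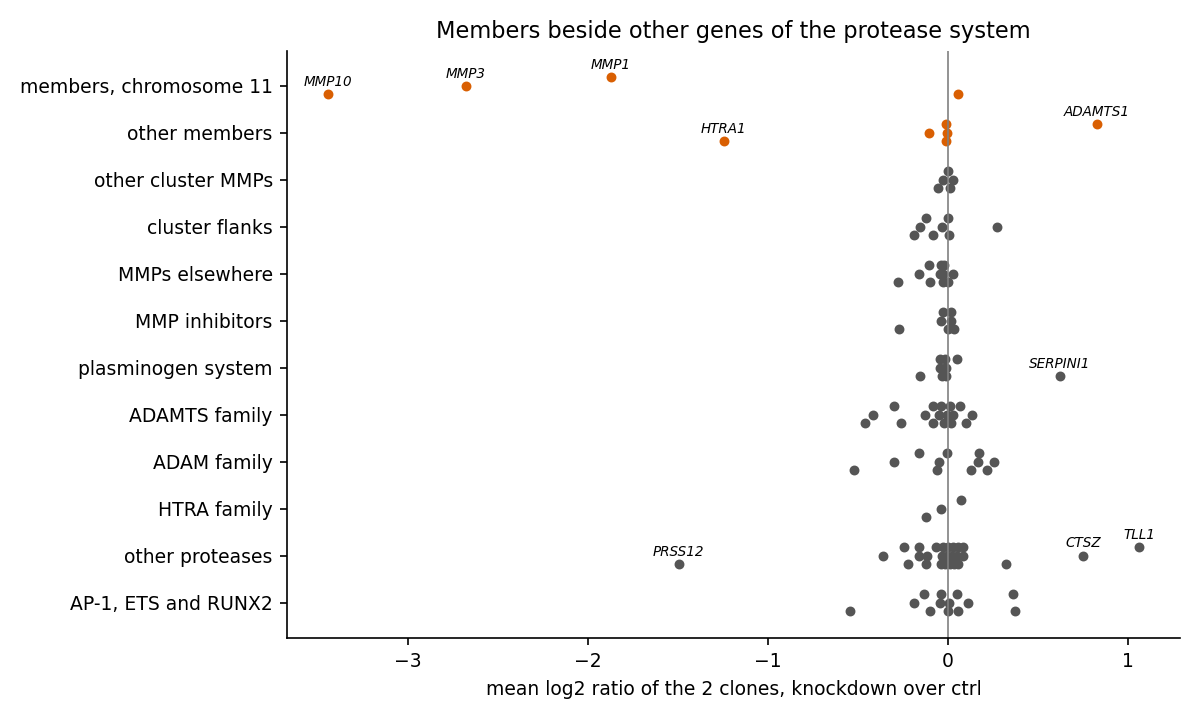
Mean log2 ratio of the 2 clones, knockdown over ctrl (x axis), 1 point per gene, for the 10 members (orange) and the 112 measured genes of the other lists, cluster flanks and transcription factors included (grey), each list on a line of its own (y axis), with names beyond 1.5-fold of the mean. MMP10, MMP3 and MMP1 lie farthest to the left, and nearly all other genes lie within 0.5 of 0.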

How the data were processed

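Total RNA of 2 knockdown clones and 1 ctrl clone was compared on 4 two-colour arrays, all on 1 slide. The authors extracted the median spot intensity and local background of each channel with Agilent Feature Extraction, version 8.5.1.1 in the submitters' processing notes and 10.5.1.1 in the file headers, and deposited these with the software's log10 ratio. The deposited p-values were not used. For these arrays, background was corrected with normexp (offset 50) and ratios were normalised by loess within arrays with limma 3.58.1 in R 4.3.3. Channel levels, but not ratios, rest on a further step between arrays (Aquantile). It gives the mean log2 intensity of the 2 channels the same distribution on every array. Dye swaps were turned to knockdown over ctrl, outlier spots left out and spots of a probe averaged. The filter kept the 39152 of 41000 probes that stood well above background on each array in 1 or both channels, and 25398 probes were named through RefSeq. The normexp offset shrinks the ratios of dim probes.

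The 2 clone means were tested against 0, so ctrl contributes no spread of its own, with Benjamini-Hochberg adjustment over all probes kept and a threshold of 0.05. Whether arrays of a clone share an RNA extract is not given in the sources used here, so they counted as 1 replicate, and p-values measure the spread between these samples. A gene is represented by its brightest probe kept. The members and lists were chosen with earlier results of these data known. Named are all members, the genes of the cluster and its flanks, list genes that were called or 1.5-fold changed on all 4 arrays, otherwise the 2 with the largest mean, and 3 nearest genes for MMP1, MMP3 and MMP10. JUN, JUNB, ETV4, FOSL1, ETS1 and the marker genes singled out were added after their values were seen. On simulated data both tests called 200 of 200 changed probes, with 9 and 10 false calls among 39152. Only large changes were planted, in noise with the same spread for every probe and without a dye effect. The simulation therefore does not give the power in the real data. There LUM, with a mean log2 ratio of -3.31, was not called (adjusted p = 0.222 by limma). Tables and plots were made with Python 3.11.15, and statmod 1.5.0 served the random block.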

Additional observations from a re-analysis of the deposited data

Results flagged for a closer look

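The log2 ratio of MMP10 differed between the knockdown clones under the same contrast with ctrl. The difference of sh-G2 minus sh-G1 was -1.90, with an adjusted p of 0.0464 by limma (0.0354 to 0.307 over the alternatives). Each side is 1 clone on a dye-swapped pair of arrays, so this p compares hybridisations of the RNA from these clones and holds no spread between cultures or clones. After normalisation between arrays, the channel values of the ctrl clone differed little between the arrays of sh-G1 (13.41 and 13.33) and of sh-G2 (13.52 and 13.40). On that scale the gap lay in the knockdown channel. The cause was not tested.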

How the results depend on the processing

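No member that was at least 1.5-fold lower or higher on all 4 arrays changed direction under the 14 alternatives for its ratio, and the count of 4 lower members was 4 under each. Some of these could not move a member: every member probe passes each brightness filter, so changing the filter left all member ratios as they were. Keeping outlier spots altered only MMP1 and MMP9. Leaving out an array or a clone could not reverse a member that passed on all 4 arrays, nor lower the count. The 1 higher member, ADAMTS1, was not counted (0) with the software's own ratios, with median centring, with the series matrix values or at a 2-fold threshold. The median of the neighbouring members moved to -2.70 with the series matrix values, which hold 3 of the 4 arrays, and ranged from -2.34 to -2.21 with single arrays left out. The median of the other members was 0.12 with the series matrix values and 0.034 with the software's ratios, and ranged from -0.11 to 0.048 with single arrays left out, turning with the dye balance that such an omission breaks. Of the 112 genes of the lists without members, flanks and factors included, the number called was 0 in the reported test, 3 with the software's ratios, 4 with the series matrix values, 14 with clone as a random block (correlation within clone -0.66 with no dye term, which could not be fitted beside it), and 1 to 8 with single arrays left out. The negative correlation of the random block narrows its standard errors, so nothing is read from its 14 calls. The 1 member probe called between clones, MMP10, became 0 with no background correction, median centring, both channels required above background, or no dye term. Same-numbered arrays share a dye orientation and deviated together (r = 0.69), and the replicate block, identical to the dye term, gave 1 call. Leaving out an array left no residual degrees of freedom for that test, and the series matrix values hold only 1 sh-G1 array, so these were not run. Brightness over background limits MMP7, MMP2 and MMP14, whose probes could show only a small decrease.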
